A study of Homo sapiens with 8 samples.

Results

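The genes of iron uptake, storage and sensing were examined in 2 human hepatocellular carcinoma lines. They were taken as every probe set whose platform annotation gives TFRC, TFR2, SLC40A1, SLC11A2, IREB2, ACO1, HFE, HAMP, FTH1 or FTL as its single gene symbol. This gave 34 of 49395 probe sets, for 8 of the 10 names; IREB2, the second iron regulatory protein, and FTH1, the ferritin heavy chain, were not analysed here. A probe set is a group of short probes on the array that reads the same transcript or transcript family.

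The groups used held 2 arrays each: Huh7.5.1 cells kept for 48 h with 10 μM CU27, Huh7.5.1 cells kept for 48 h with DMSO, and Hep3B cells kept for 48 h with DMSO. CU27 is a code name for a compound that is not described further, and DMSO is its control. Huh7.5.1 is a subline of the hepatoma line Huh7, and Hep3B is a separate hepatoma line; the labels name no engineered allele in either. Each array is labelled a biological replicate, and whether these came from separate cultures is not stated further, so the p-values measure the spread between these arrays. The 2 columns labelled Hep3B CU27 were left out because each could be computed exactly from the Hep3B DMSO columns, within 1e-06. All cells grew in DMEM or MEM with serum, and since the labels do not say which line had which medium, line and medium cannot be told apart.

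Hepatocytes take up iron bound to transferrin through the transferrin receptor, release it from endosomes through the transporter DMT1, store it in ferritin and export it through ferroportin. When iron is scarce, the iron regulatory proteins bind iron-responsive elements in mRNA, which blocks translation of ferritin and stabilises the transferrin receptor mRNA. The liver also secretes hepcidin, a peptide hormone that binds ferroportin and causes its degradation, and its gene is driven by BMP and IL-6 signals. An array reads transcript abundance and not translation or protein. In bulk samples, fewer cells of a type and less RNA per cell cannot be told apart.

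The promoters of the uptake receptor, the exporter and the hormone are shown because their transcripts carry the comparisons that follow, and the start of the FTL transcript because it holds the element through which iron controls ferritin synthesis. The first 3 are the 250 bases before the start of transcription on the gene's own strand, and all 4 are from RefSeq on GRCh38.p14.
TFRC: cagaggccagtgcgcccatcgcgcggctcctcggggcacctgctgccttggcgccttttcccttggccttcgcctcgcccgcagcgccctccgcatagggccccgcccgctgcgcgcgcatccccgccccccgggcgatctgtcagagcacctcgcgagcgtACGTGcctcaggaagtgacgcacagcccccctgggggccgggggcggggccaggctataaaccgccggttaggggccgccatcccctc
SLC40A1: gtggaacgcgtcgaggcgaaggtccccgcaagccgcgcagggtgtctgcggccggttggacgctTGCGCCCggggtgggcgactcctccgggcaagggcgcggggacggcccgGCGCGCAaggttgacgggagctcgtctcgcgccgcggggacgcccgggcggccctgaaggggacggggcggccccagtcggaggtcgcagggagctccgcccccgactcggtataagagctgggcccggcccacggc
HAMP: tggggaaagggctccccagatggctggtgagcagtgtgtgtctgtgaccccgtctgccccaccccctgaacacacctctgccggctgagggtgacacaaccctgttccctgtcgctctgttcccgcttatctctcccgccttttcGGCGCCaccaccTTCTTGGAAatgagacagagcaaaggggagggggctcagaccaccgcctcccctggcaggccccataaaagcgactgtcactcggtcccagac
FTL: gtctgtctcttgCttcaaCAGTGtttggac
The TFRC window lies at chr3:196082091-196082340 on the minus strand, and its capitals mark ACGTG, the core letters of the hypoxia response element, which begin 88 bases before the start. Searched on both strands, ACGTG occurs in 18.5% of 35116 promoter windows of this length. The SLC40A1 window lies at chr2:189580787-189581036 on the minus strand, and its capitals mark 2 matches to TGCGCNC, a core of the metal response element, at 186 and 137 bases before the start. That motif occurs in 16.8% of windows, and the TFRC window holds 3 matches to it. The HAMP window lies at chr19:35282278-35282527 on the plus strand. Its capitals mark GGCGCC, the core of the BMP response element, 105 bases before the start, and a match to the STAT motif TTCNNNGAA at 93 bases, motifs found in 16.4% and 6.57% of windows. The FTL stretch is 30 transcribed bases at chr19:48965329-48965358 on the plus strand. Its capitals mark the bulged C and the loop of the iron-responsive element; that element was searched on the transcribed strand and found in 1.67% of the 50-base stretches after a start. A match to letters is a description and says nothing of binding.

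Signals are the deposited values, taken as log2, and differences are differences of log2 means from limma with their standard error. A probe set was tested where the mean of at least 1 group reached the floor of 6.11, the 50th percentile of all values that are not array controls. The floor left 27836 probe sets, among them 23 of the 34 iron probe sets. Tested were 3 of 3 for TFRC, 0 of 1 for TFR2, 4 of 6 for SLC11A2, 2 of 2 for SLC40A1, 2 of 3 for ACO1, 2 of 2 for HAMP, 2 of 9 for HFE and 8 of 8 for FTL. In the names, _s_at and _x_at mark probe sets whose probes can match several transcripts, which among the tested iron probe sets holds for all of FTL, both of HFE, HAMP 11756126_x_at, TFRC 11756156_s_at, ACO1 11755357_s_at and SLC11A2 11764275_s_at. HAMP 11759007_at reached the floor in 1 group only, Huh7.5.1 with DMSO, so it entered the test through the group where it was highest; it is among the called probe sets counted in both comparisons. All 8 measured hepatocyte markers, among them ALB and AFP, lay above the floor in every group. Endothelial markers were above it in 0 of 4 and erythroid markers in 1 of 3 in each group. The median log2 signal of an array was 6.26 or 6.25 with CU27, 6.27 or 6.23 in Huh7.5.1 with DMSO, and 5.85 or 5.82 in Hep3B with DMSO.

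**Figure D1:**
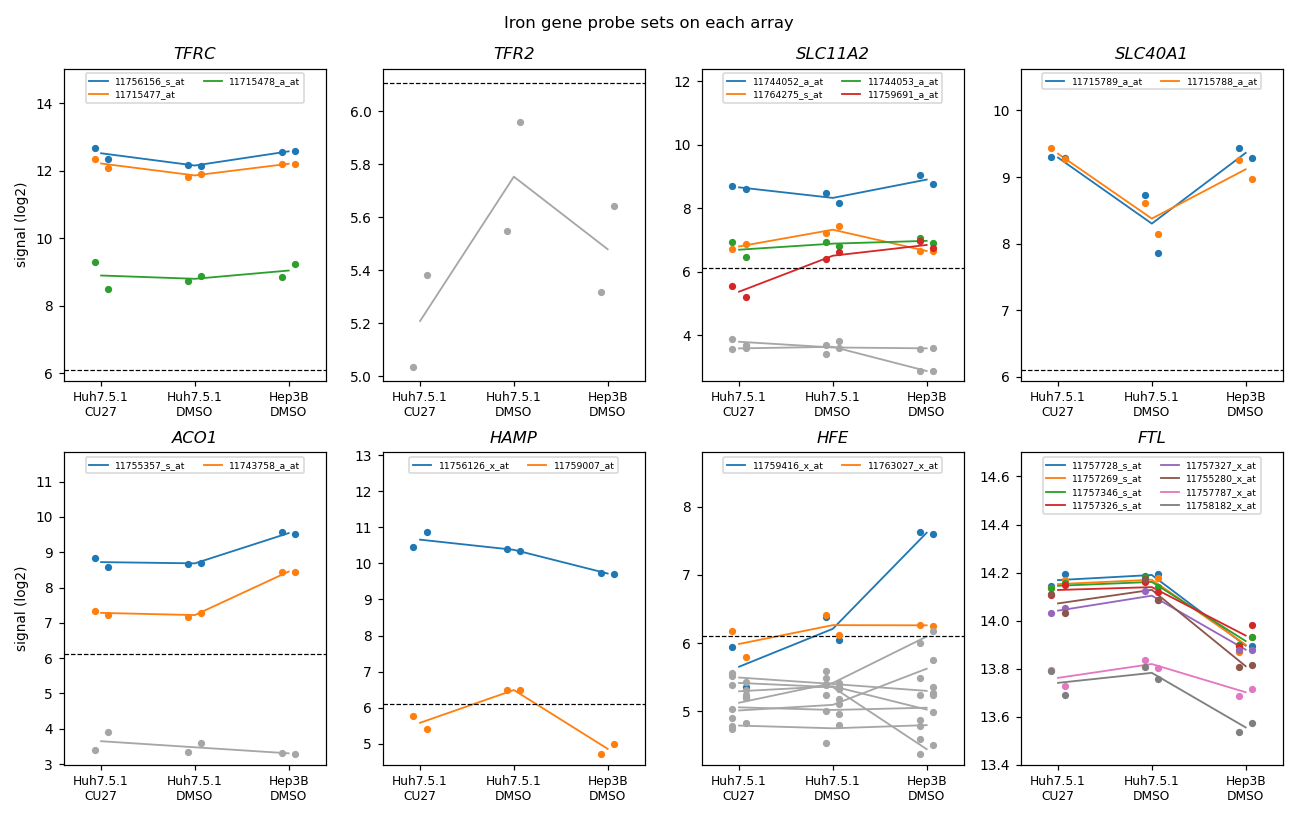
Signal (log2, vertical axes with different ranges) of each iron probe set on each array, 1 panel per gene, with Huh7.5.1 CU27, Huh7.5.1 DMSO and Hep3B DMSO from left to right. Points are arrays, lines join group means, the dashed line is the floor of 6.11, and grey marks probe sets that were not tested; both SLC40A1 probe sets dip in Huh7.5.1 DMSO, and the FTL axis does not start at 0.

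The first comparison asked which iron transcripts differed after CU27 in Huh7.5.1 cells. The iron exporter SLC40A1 rose by 0.97 and 0.99 on its 2 probe sets, TFRC rose by 0.36 and 0.35 on 2 of its 3, and FTL, ACO1 and the brighter HAMP probe set did not pass the test. Of 23 tested iron probe sets, 4 rose and 3 fell (limma, adjusted p threshold 0.05), against 10.4% and 11.3% of all tested probe sets, or 21.7% in either direction. The median difference was -0.02 over the iron probe sets and 0.01 over all tested probe sets. Since 8 of the 23 read FTL, the counts were also taken with 1 probe set per gene, the one with the highest mean: 2 of 7 tested genes, TFRC and SLC40A1, rose and 0 fell, against 11.2% and 11.1% of all genes tested, with a median difference of 0.28. Without Huh7.5.1 DMSO replicate 2, 0 iron probe sets rose and 0 fell, and 1666 of all tested probe sets passed, against 6049 with it. The differences of the probe sets that lost their calls were then 0.40 and 0.35 for TFRC, -1.02 and -0.41 for SLC11A2, -0.92 for HAMP, and 0.74 and 0.56 for SLC40A1, where the change in size was largest.

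TFRC encodes the transferrin receptor, which brings transferrin-bound iron into the cell. Probe set 11756156_s_at read 12.68 and 12.36 with CU27, against 12.17 and 12.15 with DMSO. Both CU27 arrays were above both DMSO arrays, as at 31.7% of all tested probe sets, and the difference was 0.36 ± 0.11 (SE, n = 2 arrays each, limma adjusted p = 0.0404). Probe set 11715477_at read 12.37 and 12.07 with CU27, against 11.82 and 11.91 with DMSO, a rise of 0.35 ± 0.11 (limma adjusted p = 0.0481). The dimmer probe set 11715478_a_at read 9.29 and 8.51 with CU27, against 8.73 and 8.88 with DMSO, and its groups overlapped. Its difference of 0.10 ± 0.25 did not pass (limma adjusted p = 0.827).

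The TFRC calls sat close to the threshold. They were lost in 10 of 17 alternative settings for 11756156_s_at, where the limma adjusted p ran from 0.0166 to 0.213, and in 10 of 16 for 11715477_at, where it ran from 0.0228 to 0.188. CU27 replicate 1 was the higher CU27 array on all 3 TFRC probe sets, and without it the first had a difference of 0.21 (limma adjusted p = 0.127). TFR2, a second transferrin receptor that senses iron in hepatocytes, read 5.04 and 5.38 with CU27, against 5.55 and 5.96 in DMSO-treated Huh7.5.1 and 5.32 and 5.64 in DMSO-treated Hep3B. All 6 values were below the floor and were not tested.

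SLC40A1 encodes ferroportin, the only known cellular iron exporter. Probe set 11715788_a_at read 9.43 and 9.27 with CU27, against 8.61 and 8.14 with DMSO. It rose by 0.97 ± 0.19, a 1.96-fold difference (SE, n = 2 arrays each, limma adjusted p = 0.0106). Probe set 11715789_a_at read 9.30 and 9.28 with CU27, against 8.74 and 7.87 with DMSO, and rose by 0.99 ± 0.25 (limma adjusted p = 0.0255). The CU27 arrays lay above the DMSO arrays on both probe sets, as at 31.7% of all tested probe sets. DMSO replicate 2 was the lower DMSO array on both; without it the differences were 0.74 (limma adjusted p = 0.0793) and 0.56 (limma adjusted p = 0.122). The call of 11715788_a_at held in 15 of 16 alternatives, and that of 11715789_a_at in 12 of 18.

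SLC11A2 encodes DMT1, which moves ferrous iron out of endosomes, and its probe sets did not move together. The brightest, 11744052_a_at, read 8.72 and 8.60 with CU27, against 8.48 and 8.18 with DMSO, and its difference of 0.33 ± 0.17 did not pass (SE, n = 2 arrays each, limma adjusted p = 0.203). Probe set 11759691_a_at read 5.54 and 5.21 with CU27, against 6.40 and 6.62 with DMSO, with no overlap, as at 31.4% of all tested probe sets in this direction. It lay below the floor with CU27, so it was at least 1.32-fold lower (limma adjusted p = 0.00605). Probe set 11764275_s_at read 6.73 and 6.87 with CU27, against 7.21 and 7.44 with DMSO, and fell by 0.53 ± 0.16 (limma adjusted p = 0.0499), a call lost in 11 of 15 alternatives. The fourth tested probe set, 11744053_a_at, had overlapping groups and a difference of -0.19 ± 0.19. Which SLC11A2 isoforms each probe set reads was not analysed here. The remaining 2 probe sets read between 2.88 and 3.90 on all arrays, below the floor.

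ACO1, the cytosolic aconitase that becomes iron regulatory protein 1 when it loses its iron-sulfur cluster, had overlapping groups. Probe set 11755357_s_at read 8.85 and 8.59 with CU27, against 8.67 and 8.70 with DMSO, a difference of 0.03 ± 0.15 (SE, n = 2 arrays each, limma adjusted p = 0.901). Probe set 11743758_a_at had a difference of 0.06 ± 0.15 (limma adjusted p = 0.817). FTL, the ferritin light chain of the iron store, did not pass on any probe set. Its 8 probe sets had differences from -0.06 to -0.01 with standard errors of 0.05 or 0.06, and limma adjusted p from 0.403 to 0.906. The brightest, 11757728_s_at, read 14.14 and 14.19 with CU27, against 14.19 and 14.19 with DMSO. The highest value of any probe set was 14.4 on each CU27 array, so FTL read close to the top of the scale, and the part of this in its small differences was not tested.

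HAMP, the hepcidin gene, gave opposite readings on its 2 probe sets. Probe set 11756126_x_at read 10.44 and 10.87 with CU27, against 10.40 and 10.35 with DMSO, and its difference of 0.28 ± 0.16 did not pass (SE, n = 2 arrays each, limma adjusted p = 0.232). Probe set 11759007_at read 5.76 and 5.41 with CU27, against 6.50 and 6.48 with DMSO. It lay below the floor with CU27, so it was at least 1.30-fold lower, and its difference was -0.91 (limma adjusted p = 0.0159, or 0.0163 with every probe set tested and no floor). The difference was -0.73 without CU27 replicate 2, -0.90 without DMSO replicate 1 and -0.92 without DMSO replicate 2, and with fewer arrays the limma adjusted p was 0.0855, 0.0669 and 0.0902. HFE, an upstream regulator of hepcidin mutated in hereditary haemochromatosis, had 2 tested probe sets and no call. Probe set 11759416_x_at read 5.95 and 5.36 with CU27, against 6.38 and 6.04 with DMSO (limma adjusted p = 0.112). With a block for the replicate number it passed as lower, at -0.56 (limma adjusted p = 0.0371), and without CU27 replicate 1 it differed by -0.85. The 7 untested HFE probe sets read between 4.38 and 6.18 over all arrays.

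**Figure D2:**
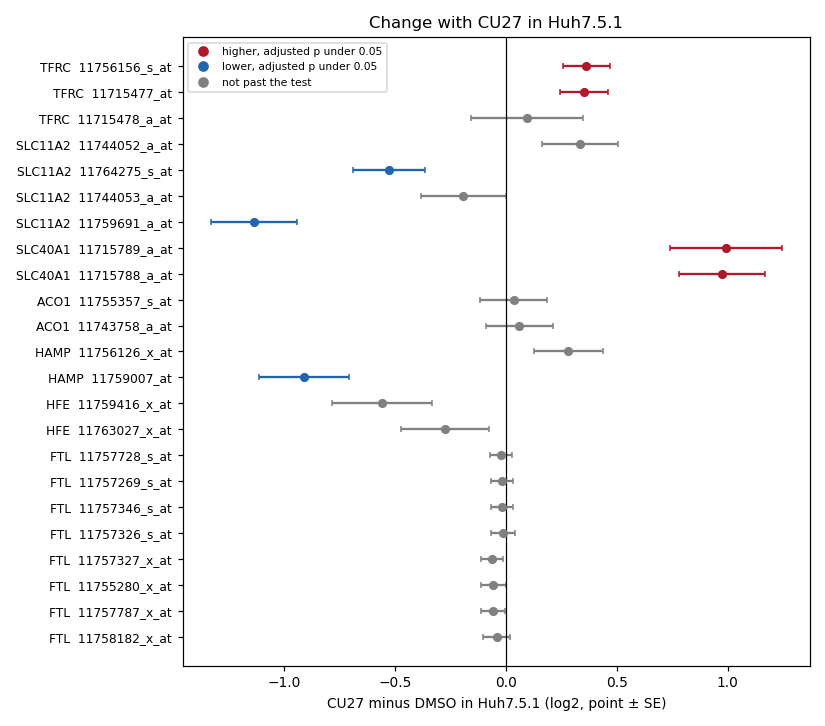
Difference of CU27 from DMSO in Huh7.5.1 cells (log2, horizontal axis) for each of the 23 tested iron probe sets, with bars of 1 SE and n = 2 arrays per group. The 2 SLC40A1 probe sets stand farthest to the right at 0.99 and 0.97, and the 8 FTL probe sets lie between -0.06 and -0.01.

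The rest of iron metabolism was read from 7 gene lists, each gene by the probe set whose mean was highest. Of 124 listed genes, 113 were measured and 100 tested; 8 rose and 18 fell with CU27, against 11.2% and 11.1% of the 11383 genes tested, or 22.3% in either direction. The median difference of the listed genes was -0.03, against 0.02 over all genes tested. The count was 3 to 11 rising and 7 to 22 falling when single arrays were left out. LCN2 and HP reached the floor in Huh7.5.1 with DMSO only, so they entered the test through the group where they were highest.

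Of the 18 falls, 9 were in the BMP and SMAD list that controls hepcidin, where 2 of 22 tested genes rose and the median was -0.38. Of all genes tested, 11.2% rose and 11.1% fell. ID3, a transcriptional target of BMP signals, read 10.81 and 10.33 with CU27, against 12.00 and 12.06 with DMSO, and fell by 1.46 ± 0.15 (SE, n = 2 arrays each, limma adjusted p = 0.00134). ID1, another such target, fell by 0.77 ± 0.12 (limma adjusted p = 0.00428). SMAD6 was also among the 9 falls, at -0.75 (limma adjusted p = 0.0474). Its other tested probe sets differed by -0.14 and -0.36 and did not pass (limma adjusted p = 0.618 and 0.185). The SMAD6 call was not followed through the alternatives. Of the 22 tested genes, 11 did not pass, so the list did not move as a whole. Among these were ID2 at -0.26 (limma adjusted p = 0.417), ATOH8 at -0.04 (0.919) and SMAD7 at 0.33 (0.164). SMAD1, which carries the BMP signal to the nucleus, read 8.42 and 8.09 with CU27, against 9.46 and 9.48 with DMSO, and fell by 1.21 ± 0.16 (limma adjusted p = 0.00257). CEBPA, a liver transcription factor that binds the hepcidin promoter, read 10.43 and 10.19 with CU27, against 11.49 and 11.54 with DMSO, and fell by 1.21 ± 0.11 (limma adjusted p = 0.000848). For ID3, ID1, SMAD1 and CEBPA every CU27 array lay below every DMSO array, as at 31.4% of all tested probe sets. These 4 were named because they had the smallest p of the falls in the list.

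The genes that rose in the same list belong to the IL-6 branch. STAT3, which binds the STAT motif of the hepcidin promoter, read 10.18 and 10.38 with CU27, against 9.47 and 9.48 with DMSO, and rose by 0.81 ± 0.14 (SE, n = 2 arrays each, limma adjusted p = 0.00685). IL6R, the IL-6 receptor, read 8.23 and 8.06 with CU27, against 7.53 and 6.73 with DMSO, and rose by 1.01 ± 0.28 (limma adjusted p = 0.0367). The IL6R call was lost on leaving out each array in turn, except DMSO replicate 1, with limma adjusted p up to 0.223. TMPRSS6, the protease that lowers hepcidin, had a difference of 0.07 ± 0.15, and GDF15, a secreted stress factor, one of -0.09 ± 0.20; neither passed. BMP6, the iron-responsive BMP ligand, lay below the floor in all groups.

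Some hepatocyte markers fell beside these genes. Of 8 measured, 0 rose and 3 fell, namely TTR, APOB and SERPINA1, against 11.2% and 11.1% of all genes tested. The summed log2 signal of the 8 was 102.1 with CU27 and 106.7 with DMSO. Of 6 macrophage markers, 2 were above the floor with CU27 and 2 with DMSO, with summed log2 signals of 32.9 and 31.5. CD68, which is also a lysosomal glycoprotein of other cells, rose by 2.25 ± 0.20 (SE, n = 2 arrays each, limma adjusted p = 0.000848). CD14 averaged 4.02 with CU27 and 4.71 with DMSO, below the floor in both groups, and passed as lower (limma adjusted p = 0.0372); it was tested because Hep3B reached the floor. The macrophage markers CD163, PTPRC and CSF1R were also below the floor in both groups. The part of these markers in the iron results was not tested.

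Among genes of ferritin turnover and iron regulatory protein control, 1 rose and 2 fell of 10 tested, against 11.2% and 11.1% of all genes tested. NCOA4, the receptor that delivers ferritin to lysosomes, read 11.35 and 11.42 with CU27, against 10.93 and 11.08 with DMSO, and rose by 0.38 ± 0.10 (SE, n = 2 arrays each, limma adjusted p = 0.0321). LCN2, a secreted siderophore-binding protein, lay below the floor with CU27 and was at least 2.41-fold lower (limma adjusted p = 0.0014). PCBP4, of the poly(C)-binding protein family, fell by 1.09 ± 0.17 (limma adjusted p = 0.00472). FBXL5, the ubiquitin ligase subunit that degrades iron regulatory proteins when iron is plentiful, had a difference of -0.01 ± 0.13, and the chaperone PCBP2 one of -0.08 ± 0.07; neither passed. NCOA4 lost its call in 8 alternatives, among them each array left out other than CU27 replicate 1. The other NCOA4 probe set differed by 0.32 and did not pass (limma adjusted p = 0.16).

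In the list of transferrin and reductases, 1 of 11 tested genes rose and 0 fell, against 11.2% and 11.1% of all genes tested. The gene that rose was MCOLN1, a lysosomal cation channel that conducts iron, at 0.73 ± 0.18 (SE, n = 2 arrays each, limma adjusted p = 0.0231). Its difference was 0.61 without CU27 replicate 2 (limma adjusted p = 0.11) and 0.52 without DMSO replicate 2 (0.162). The other MCOLN1 probe set differed by 0.37 and did not pass (limma adjusted p = 0.136). CP, the ferroxidase ceruloplasmin, read 4.88 and 3.90 with CU27, against 5.50 and 4.86 with DMSO, below the floor in both groups. CP did not pass (limma adjusted p = 0.113). On 2 of its other 3 probe sets, also below the floor in both groups, CP passed as lower, with limma adjusted p of 0.0387 and 0.0281. TF, plasma transferrin, had a difference of -0.20 ± 0.10 (limma adjusted p = 0.166), and STEAP3, the endosomal ferrireductase, one of 0.18 ± 0.17. CYBRD1, a ferric reductase, was below the floor. Among other iron and heme transporters, 1 rose and 2 fell of 16, against the same 11.2% and 11.1%. ABCG2, which exports porphyrins and many drugs, rose by 1.01 ± 0.18 (limma adjusted p = 0.0073). Its other tested probe set differed by 0.55 and did not pass (limma adjusted p = 0.167). The heme-binding HPX fell by 1.41 ± 0.25 (limma adjusted p = 0.00662), and the haemoglobin-binding HP was at least 1.19-fold lower. HP is uncertain because HPR is nearly identical to it. Without DMSO replicate 2, HPX differed by -1.23 (limma adjusted p = 0.0528) and HP by -1.14 (0.0958), and without CU27 replicate 2 HP differed by -0.83 (0.069). SLC39A14, an importer of iron not bound to transferrin, had a difference of -0.30 ± 0.10 (limma adjusted p = 0.068).

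In heme synthesis and breakdown, 3 rose and 2 fell of 13, with a median of 0.32. Of all genes tested, 11.2% rose and 11.1% fell. CPOX, an enzyme of late heme synthesis, read 10.30 and 9.85 with CU27, against 9.12 and 8.80 with DMSO, and rose by 1.12 ± 0.19 (SE, n = 2 arrays each, limma adjusted p = 0.0057). ALAS1, which catalyses the first step in liver, rose by 0.67 ± 0.19 (limma adjusted p = 0.0349), and BLVRB, a biliverdin reductase, by 0.90 ± 0.21 (limma adjusted p = 0.0192). UROS, of the middle of the pathway, fell by 0.80 ± 0.16, and FECH, which inserts iron in the last step, by 0.54 ± 0.15 (limma adjusted p = 0.04). Calls were lost in 10 alternatives for FECH, in 5 of 18 for ALAS1, where the limma adjusted p reached 0.177, and in 2 each for BLVRB and UROS. ALAS1 differed by 0.58, 0.50 and 0.85 without CU27 replicate 2, DMSO replicate 1 and DMSO replicate 2. Without CU27 replicate 2 and DMSO replicate 2, BLVRB differed by 0.68 and 0.61 (limma adjusted p = 0.105 and 0.125), and UROS by -0.73 and -0.71 (0.0549 and 0.0907). HMOX1, the inducible heme oxygenase that releases iron from heme, had a difference of -0.41 ± 0.24 and did not pass (limma adjusted p = 0.258).

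Of 24 iron-sulfur cluster assembly genes, 0 rose and 3 fell, against 11.2% and 11.1% of all genes tested, so the falls were near that share. They were the mitochondrial chaperone HSPA9 at -0.73 ± 0.09 (SE, n = 2 arrays each, limma adjusted p = 0.00232), the ferredoxin FDX1 at -0.75 ± 0.15 (limma adjusted p = 0.00957) and the assembly factor ISCA1 at -0.60 ± 0.14 (limma adjusted p = 0.0201). Both other tested ISCA1 probe sets had differences of the opposite sign, up to 0.14, and did not pass. ISCA1 lost its call without CU27 replicate 2 (limma adjusted p = 0.0843), DMSO replicate 1 (0.0654) or DMSO replicate 2 (0.13), and FDX1 without DMSO replicate 2 (0.0738). In these fits ISCA1 differed by -0.54, -0.64 and -0.56, and FDX1 by -0.72. FDX1 also lost its call without _x_at and _s_at probe sets, where it was read from another probe set and differed by -0.36 (limma adjusted p = 0.259). Of 4 tested genes whose mRNAs also carry an iron-responsive element, 0 rose and 0 fell, against the same 11.2% and 11.1%. The hypoxia factor EPAS1 had a difference of 0.02 ± 0.14.

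**Figure D3:**
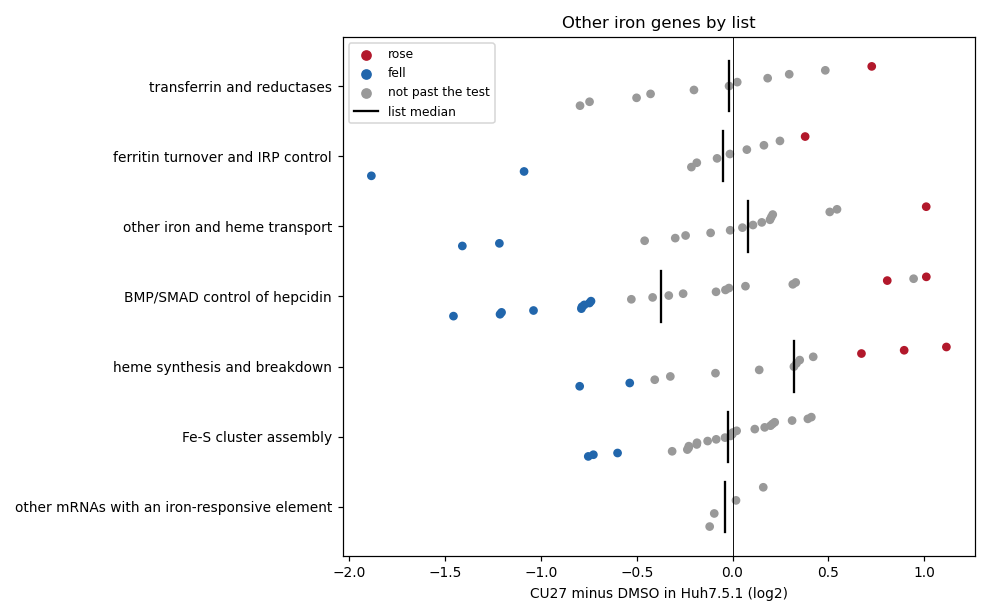
Difference of CU27 from DMSO in Huh7.5.1 cells (log2, horizontal axis) for each tested gene of the 7 iron lists, 1 point per gene, with a black bar at each list's median; red marks genes that rose, blue genes that fell and grey genes not past the test. The BMP and SMAD list has its median at -0.38 and 9 of its 22 genes in blue.

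The second comparison set Huh7.5.1 against Hep3B, both in DMSO. Huh7.5.1 cells had less SLC40A1, ACO1 and TFRC and more HAMP than Hep3B cells on the deposited scale. Of 23 tested iron probe sets, 10 were higher and 8 lower in Huh7.5.1, against 44.8% and 19.4% of all tested probe sets, or 64.2% in either direction (limma, adjusted p threshold 0.05). Of the 10 higher, 7 were FTL. With 1 probe set per gene, 2 of 7 tested genes, FTL and HAMP, were higher and 5 lower, against 40.1% and 22.5% of all genes tested, with a median difference of -0.58 against 0.22. The median of all tested probe sets was shifted by 0.34 towards Huh7.5.1, whereas that of the iron probe sets was 0.00. With each array centred on its median, 1 iron probe set was higher and 17 were lower, so iron probe sets are also given relative to the shift, while list genes are given on the deposited scale. The lines also differed in the 3′ minus 5′ signal of the ACTB control, a measure of RNA integrity, which was 0.94 and 1.06 in Huh7.5.1 and 2.28 and 1.60 in Hep3B. Its part in the differences was not tested.

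Among receptors, TFRC 11756156_s_at read 12.17 and 12.15 in Huh7.5.1, against 12.56 and 12.60 in Hep3B, a difference of -0.42 ± 0.11 or -0.76 relative to the shift (SE, n = 2 arrays each, limma adjusted p = 0.00745). TFRC 11715477_at differed by -0.35 ± 0.11, or -0.68 relative to the shift (limma adjusted p = 0.0205), and 11715478_a_at by -0.24 ± 0.25, or -0.58, without passing. The Huh7.5.1 arrays were below the Hep3B arrays on the first 2 probe sets, as at 27.8% of all tested probe sets, and the calls were lost in 2 of 16 and 4 of 15 alternatives. Among these were Hep3B replicate 3 left out for the first (limma adjusted p = 0.0536), and Huh7.5.1 replicate 1 (0.103), Hep3B replicate 2 (0.0896) or Hep3B replicate 3 (0.0862) left out for the second. On 11756156_s_at the CU27-treated Huh7.5.1 arrays straddled the Hep3B DMSO arrays; that contrast mixes line and treatment and was not tested.

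The exporter was also lower in Huh7.5.1. SLC40A1 11715789_a_at read 8.74 and 7.87 in Huh7.5.1, against 9.44 and 9.29 in Hep3B, a difference of -1.06 ± 0.25 or -1.40 relative to the shift (SE, n = 2 arrays each, limma adjusted p = 0.00567). SLC40A1 11715788_a_at read 8.61 and 8.14 in Huh7.5.1, against 9.26 and 8.97 in Hep3B, a difference of -0.74 ± 0.19 or -1.08 relative to the shift (limma adjusted p = 0.00931). All Huh7.5.1 arrays were lower on both probe sets, as at 27.8% of all tested probe sets in this direction. The first call was lost in 0 of 17 alternatives. The second was lost in 2 of 15, without Huh7.5.1 replicate 2 or Hep3B replicate 2, with differences of -0.50 and -0.59. SLC11A2 again divided on the deposited scale. Probe set 11744052_a_at was lower in Huh7.5.1, at -0.58 ± 0.17 or -0.91 relative to the shift (limma adjusted p = 0.0165). Probe set 11764275_s_at was higher by 0.67 ± 0.16 or 0.33 (limma adjusted p = 0.00633). Not past the test were 11759691_a_at at -0.34 ± 0.19, or -0.68, and 11744053_a_at at -0.09 ± 0.19, or -0.42 (limma adjusted p = 0.154 and 0.707). With centred arrays these 2 passed as lower, at -0.75 and -0.50 (limma adjusted p = 0.00776 and 0.0442). Probe set 11759691_a_at also passed as lower with quantile normalization (limma adjusted p = 0.00901). The call of 11744052_a_at was lost without Huh7.5.1 replicate 2 (limma adjusted p = 0.121) or Hep3B replicate 2 (0.115), with differences of -0.43 and -0.44, and the mean of all SLC11A2 probe sets was 0.0762 higher in Huh7.5.1. The call of 11764275_s_at was lost when arrays were centred or quantile normalized, and without Huh7.5.1 replicate 2 (limma adjusted p = 0.0568).

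ACO1 had the smallest adjusted p of the iron probe sets between lines. Probe set 11743758_a_at read 7.15 and 7.29 in Huh7.5.1, against 8.45 and 8.45 in Hep3B, and was lower, at -1.23 ± 0.15, or 0.426-fold (SE, n = 2 arrays each, limma adjusted p = 0.000152). Relative to the shift this was -1.57. Probe set 11755357_s_at read 8.67 and 8.70 in Huh7.5.1, against 9.58 and 9.51 in Hep3B, a difference of -0.86 ± 0.15 or -1.19 relative to the shift (limma adjusted p = 0.0011). Both calls held in all 15 and 16 alternatives run. HFE 11759416_x_at read 6.38 and 6.04 in Huh7.5.1, against 7.63 and 7.60 in Hep3B, and was lower, at -1.41 ± 0.22 or -1.74 relative to the shift (limma adjusted p = 0.000671). The other tested HFE probe set, 11763027_x_at, differed by 0.00 ± 0.20, or -0.33, so the HFE probe sets disagreed.

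HAMP read higher in Huh7.5.1 on both probe sets, with no overlap of arrays, as at 57.4% of all tested probe sets in this direction. HAMP 11756126_x_at read 10.40 and 10.35 in Huh7.5.1, against 9.74 and 9.70 in Hep3B, a difference of 0.66 ± 0.16 (SE, n = 2 arrays each, limma adjusted p = 0.00561). Relative to the shift this was 0.32, and with centred arrays it was 0.24 and did not pass (limma adjusted p = 0.213). HAMP 11759007_at read 6.50 and 6.48 in Huh7.5.1, the only group in which it reached the floor, against 4.73 and 4.99 in Hep3B, so it was at least 1.30-fold higher. Its difference was 1.63, or 1.29 relative to the shift (limma adjusted p = 0.000166, or 0.000116 with every probe set tested and no floor). FTL had differences of 0.12 to 0.32, of which 7 of 8 passed, and all 8 Huh7.5.1 readings were above those of Hep3B. Relative to the shift all 8 were from -0.22 to -0.02, so the direction of FTL turned with the scaling. With centred arrays 11757326_s_at, 11757327_x_at, 11757346_s_at, 11757787_x_at and 11758182_x_at passed as lower, with limma adjusted p from 0.00172 to 0.0247. The remaining FTL probe sets were then also below 0 and did not pass.

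**Figure D4:**
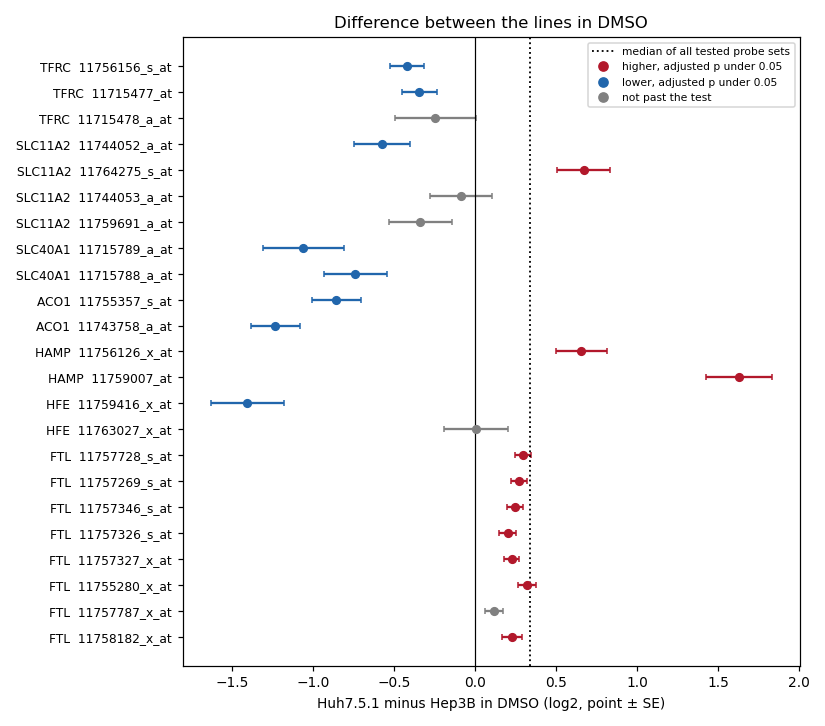
Difference of Huh7.5.1 from Hep3B in DMSO (log2, horizontal axis) for each of the 23 tested iron probe sets, with bars of 1 SE and n = 2 arrays per group; the shift of all tested probe sets is 0.34. SLC40A1, ACO1 and HFE 11759416_x_at lie left of 0, HAMP lies right of 0.34, and the FTL probe sets lie between 0.12 and 0.32.

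Among the 100 tested genes of the lists, 46 were higher and 22 lower in Huh7.5.1, against 40.1% and 22.5% of all genes tested, or 62.6% in either direction, with a median of 0.29 against 0.22. With centred arrays the counts were 33 and 37. CP, HJV and ABCB8 reached the floor in Hep3B only and LCN2 in Huh7.5.1 with DMSO only, so each entered the test through the group where it was highest. HEPH, STEAP2, TWSG1 and IL6R lay below the floor in Hep3B and reached it in Huh7.5.1. They too entered the test only through the line where they were high. Of the multicopper ferroxidases, which oxidise iron for loading onto transferrin, HEPH and CP went opposite ways and HEPHL1 was below the floor in all groups. HEPH, the membrane form, read 8.64 and 9.03 in Huh7.5.1. It read 3.31 and 3.31 in Hep3B, below the floor, and was at least 6.63-fold higher in Huh7.5.1 (limma adjusted p = 1.94e-07). The other HEPH probe set differed by 2.33 (limma adjusted p = 1.45e-05), which was also the lowest HEPH difference over 17 alternatives. CP, the secreted form made by liver, read 5.50 and 4.86 in Huh7.5.1, below the floor, against 9.77 and 9.70 in Hep3B, and was at least 12.4-fold lower (limma adjusted p = 8.46e-06).

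The transferrin and reductase list, which holds these ferroxidases, had 4 higher and 3 lower of 11, against 40.1% and 22.5% of all genes tested. STEAP1 and STEAP2, metalloreductases, were higher by 2.69 ± 0.30 (SE, n = 2 arrays per group) and by at least 1.80-fold, and the endocytic receptor LRP1 by 1.05 ± 0.16. TF read 12.82 and 13.06 in Huh7.5.1, against 13.93 and 14.04 in Hep3B, and was lower, at -1.05 ± 0.10 (limma adjusted p = 3.13e-05). EXOC6, a subunit of the exocyst, was lower at -0.56 ± 0.19, a call lost without Huh7.5.1 replicate 1, Hep3B replicate 2 or Hep3B replicate 3 (limma adjusted p = 0.226, 0.154 and 0.0617). STEAP3 had a difference of -0.02 ± 0.17. Of 16 other transporters, 8 were higher and 3 lower, against the same 40.1% and 22.5%. ABCG2 was higher by 2.42 ± 0.18, and the metal importers SLC39A8 and SLC39A14 by 1.52 ± 0.16 and 0.86 ± 0.10. The lysosomal heme transporter SLC48A1 was higher by 1.23 ± 0.14, and the mitochondrial transporters ABCB10 and ABCB8 were lower, at -0.66 ± 0.18 and by at least 1.03-fold. ABCB10 lost its call without Huh7.5.1 replicate 1 (limma adjusted p = 0.0518) or Hep3B replicate 2 (0.0805), and ABCB8 without Huh7.5.1 replicate 2 (0.0611). The heme exporter FLVCR1 differed by -0.49 ± 0.18, with both of its other probe sets of the opposite sign and 1 of them past the test; FLVCR1 lost its call on leaving out each of the 4 DMSO arrays in turn.

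The BMP and SMAD list had 12 higher and 4 lower of 22, against 40.1% and 22.5% of all genes tested. BMP2, a ligand that induces hepcidin, was higher in Huh7.5.1 by 3.24 ± 0.15 (SE, n = 2 arrays each, limma adjusted p = 1.01e-06), GDF15 by 1.79 ± 0.20, and the BMP modulator TWSG1 and IL6R by at least 3.17-fold and at least 2.03-fold. HJV, the BMP co-receptor hemojuvelin, read 4.61 and 5.04 in Huh7.5.1, below the floor, against 7.87 and 7.99 in Hep3B, and was at least 3.54-fold lower (limma adjusted p = 4.59e-05). ATOH8, a transcription factor that responds to BMP signals, was lower, at -1.63 ± 0.19, as were CEBPA at -1.17 ± 0.11 and the receptor ACVR1 at -0.92 ± 0.13. TMPRSS6 had a difference of -0.02 ± 0.15.

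The transcripts of the heme oxygenases, which open the heme ring in the first step of its breakdown, differed in opposite directions. HMOX1 read 11.35 and 10.57 in Huh7.5.1, against 7.69 and 7.41 in Hep3B, and was higher by 3.41 ± 0.24 (SE, n = 2 arrays each, limma adjusted p = 7.43e-06). HMOX2, the constitutive form, was lower at -0.69 ± 0.21 (limma adjusted p = 0.0185), a call lost without Huh7.5.1 replicate 1 (0.0805), Huh7.5.1 replicate 2 (0.0514) or Hep3B replicate 3 (0.115). BLVRA, the main biliverdin reductase of adults, was lower, at -1.28 ± 0.18, and BLVRB higher by 1.07 ± 0.21. Of the synthesis enzymes, UROS was higher by 0.94 ± 0.16 and FECH by 0.52 ± 0.15. The FECH call was lost in 5 of 17 alternatives, and the difference was 0.11 when arrays were centred. ALAD, of the second step, was lower at -0.66 ± 0.15, as was TMEM14C, a mitochondrial protein of heme synthesis in mouse erythroid cells, at -0.46 ± 0.13. TMEM14C lost its call without Huh7.5.1 replicate 2 (limma adjusted p = 0.0745) or Hep3B replicate 3 (0.114). ALAS1 had a difference of 0.21 ± 0.19, which turned to -0.20 with centred arrays and did not pass in either. The heme list had 5 higher and 4 lower of 13, against 40.1% and 22.5% of all genes tested.

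The ferritin turnover list had 3 higher and 3 lower of 10, against 40.1% and 22.5% of all genes tested. LCN2 was at least 2.41-fold higher, NCOA4 lower at -0.81 ± 0.10 and the iron chaperone PCBP1 lower at -0.52 ± 0.09. CIAO1, a scaffold of cytosolic iron-sulfur assembly, was higher by 1.04 ± 0.13 (SE, n = 2 arrays each), and by 0.15 without _x_at and _s_at probe sets (limma adjusted p = 0.395). PCBP4 was higher by 0.55 ± 0.17, a call lost in 4 of 16 alternatives with a difference of 0.14 when arrays were centred. HERC2, the ubiquitin ligase that acts on NCOA4, was lower at -0.90 ± 0.17. FBXL5 had a difference of 0.03 ± 0.13 and PCBP2 one of 0.0027 ± 0.07, and neither passed on the deposited scale. With centred arrays both passed as lower, FBXL5 at -0.38 and PCBP2 at -0.41 (limma adjusted p = 0.0293 and 0.000856).

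Of 24 iron-sulfur genes, 11 were higher and 4 lower, against 40.1% and 22.5% of all genes tested. NUBPL, an assembly factor of respiratory complex I, was higher by 2.92 ± 0.13 (SE, n = 2 arrays each), ISCA1 by 1.96 ± 0.14, HSPA9 by 1.29 ± 0.09 and the glutaredoxin GLRX3 by 1.11 ± 0.10. The lower genes were LYRM4, a partner of the cysteine desulfurase, at -0.77 ± 0.16, the sulfhydryl oxidase GFER at -0.62 ± 0.17, the assembly factor ISCA2 at -0.53 ± 0.15 and BOLA1 at -0.52 ± 0.18. GFER, ISCA2 and BOLA1 each lost their call in 3 alternatives, with limma adjusted p up to 0.114, 0.112 and 0.253, and BOLA1 differed by -0.27 without Huh7.5.1 replicate 2. Of 4 tested genes with an iron-responsive element, 3 were higher and 1 lower, against the same 40.1% and 22.5% of all genes tested. The actin-binding PFN2 was higher by 0.85 ± 0.13 (limma adjusted p = 0.000462). The kinase CDC42BPA was higher by 1.32 ± 0.50, a call lost in 7 of 17 alternatives, and by 0.48 without Huh7.5.1 replicate 1 (limma adjusted p = 0.306). EPAS1 was higher by 0.43 ± 0.14 (limma adjusted p = 0.0254), a call lost in 5 of 17 alternatives, and with centred arrays its difference was 0.02 (0.933). APP was lower at -0.37 ± 0.10, with 1 of its 11 other probe sets past the test the opposite way, and lost its call without Huh7.5.1 replicate 2 (limma adjusted p = 0.0586) or Hep3B replicate 3 (0.0915).

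Over the 6 arrays, the gene whose values were most like those of TFRC 11756156_s_at among 11382 tested genes was CD47, a cell surface receptor, with a Pearson r of 0.995. It was followed by VNN2, a vanin family enzyme, at 0.975 and PAM, which amidates peptides, at 0.973. A total of 46 genes had an r above 0.9. With 6 arrays in 3 groups, these values describe a shared pattern of group means and of arrays within a group. CU27 replicate 1 read above CU27 replicate 2 for CD47 (10.29 and 9.83), VNN2 (6.74 and 6.12) and PAM (10.42 and 10.00), as for TFRC.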

How the data were processed

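RNA of each sample was amplified and biotin-labelled with an Affymetrix 3′ IVT kit for 1 expression array, per the labels. The authors deposited a table of 49395 probe sets by 8 columns. The deposited values were taken as log2 from their range, and MAS5 is named, with no version, per the submitters' processing notes; how arrays were scaled to each other is unknown. Precision is limited by the number of arrays.

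The 6 arrays used were fitted with limma 3.58.1 in R 4.3.3 (lmFit and contrasts, then eBayes with an intensity trend, 3 residual and 5.62 prior degrees of freedom). Two-sided p-values were adjusted by the Benjamini-Hochberg method over 27836 probe sets, after leaving out 102 array controls and probe sets below the floor in all groups; genes of the lists were read from the same fit, in which 11383 genes had a tested highest-mean probe set. An exact permutation test of 2 against 2 arrays cannot go below 0.333. A group mean below the floor gives a fold of at least the ratio to the floor. Gene names come from the platform annotation; 44967 of 44994 probe sets with 1 symbol, array controls included, matched the gene table and 0 symbols changed. On data simulated for the CU27 comparison over 27836 probe sets, 80% of 2-fold and 100% of 4-fold changes were recovered and 0.0615% of unchanged probe sets called. The simulation changed only 200 probe sets and gave every array independent noise of the fitted spread. In the deposited data 21.7% of tested probe sets were called, and deviations of same-numbered Huh7.5.1 arrays correlated at 0.31. These rates therefore check the code and need not hold for the deposited data.

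All members were named, with every called list gene up to 4 per list and direction by smallest p, set genes such as TF and HMOX1 whether or not they passed (1 is not reported here), and the 3 genes most like TFRC. The members and lists were chosen with earlier results of these data known. Alternatives covered scaling, floor, variance model, probe set choice, arrays in the fit, the replicate block and each array left out.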

Additional observations from a re-analysis of the deposited data

How the results depend on the processing

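With arrays left out in turn, the iron probe sets that rose numbered 0 to 3 and those that fell 0 to 3, and all calls with CU27 1666 to 6137. The rises were 2 with a floor at the 25th percentile, with no floor, without a trend and without _x_at and _s_at probe sets, and 1 with only the Huh7.5.1 arrays. Without _x_at and _s_at probe sets, 9 listed genes fell and 3738 probe sets passed with CU27. Between lines, 8 to 10 iron probe sets were higher and 6 to 9 lower with arrays left out. Those higher were 1 with centred arrays, 2 with quantile normalization, 3 without a trend and 1 without _x_at and _s_at probe sets. Those lower were 17 with centred arrays and 5 without _x_at and _s_at probe sets. Leaving out probe sets with equal Hep3B DMSO values gave 10 iron probe sets higher and 8 lower, and 46 listed genes higher and 20 lower. Among listed genes, 3 to 11 rose and 7 to 22 fell with CU27, and 38 to 46 were higher and 13 to 24 lower between lines; 37 were lower with centred arrays. All calls between lines were 14343 to 18588 with arrays left out and 29300 with no floor. A lone array left in a group is assumed to vary like the other groups. The causes were not tested, except that dropping probe sets or lowering the floor changes how many are tested.

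The Huh7.5.1 groups share replicate numbers 1 and 2, and the deviations of same-numbered arrays correlated at 0.31, but the labels tie the numbers to no shared batch. With the replicate block, 4 iron probe sets rose and 4 fell, 12 listed genes rose and 21 fell, and 7388 probe sets passed. The lines share only number 2, so no paired comparison was made between them.

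The CU27 differences that changed sign with the mean of a gene's probe sets were SLC11A2 at -0.23, HAMP at -0.31, FBXL5 at 0.0143, TMPRSS6 at -0.0315, EPAS1 at -0.0102. With single arrays left out, the CU27 differences that changed sign ran, as lowest and highest log2 value, for TFRC 11715478_a_at from -0.30 to 0.49, ACO1 11743758_a_at from -0.00446 to 0.13, SLC11A2 11744053_a_at from -0.42 to 0.0402, ACO1 11755357_s_at from -0.0929 to 0.16, FTL 11757326_s_at from -0.0331 to 0.00931, FTL 11757346_s_at from -0.0381 to 0.00586, FTL 11757728_s_at from -0.0465 to 0.00393, FTL 11758182_x_at from -0.0924 to 0.00896, FBXL5 from -0.0429 to 0.0153, TMPRSS6 from -0.033 to 0.17, EPAS1 from -0.15 to 0.19, GDF15 from -0.38 to 0.21. The line differences that changed sign with the mean of a gene's probe sets were SLC11A2 at 0.0762, FLVCR1 at 0.15, FBXL5 at -0.15, TMPRSS6 at 0.21. The line differences that changed sign with each array centred were FTL 11755280_x_at at -0.10, FTL 11757269_s_at at -0.15, FTL 11757326_s_at at -0.22, FTL 11757327_x_at at -0.19, FTL 11757346_s_at at -0.17, FTL 11757728_s_at at -0.12, FTL 11757787_x_at at -0.30, FTL 11758182_x_at at -0.19, HFE 11763027_x_at at -0.41, FBXL5 at -0.38, ALAS1 at -0.20, PCBP2 at -0.41. The line differences that changed sign with quantile normalization were FTL 11757326_s_at at -0.0185, FTL 11757327_x_at at -0.0015, FTL 11757787_x_at at -0.0555, HFE 11763027_x_at at -0.42, FBXL5 at -0.19, ALAS1 at -0.0238, PCBP2 at -0.15. The line differences that changed sign without _x_at and _s_at probe sets were PCBP2 at -0.0474. With single arrays left out, the line differences that changed sign ran, as lowest and highest log2 value, for HFE 11763027_x_at from -0.14 to 0.15, TMPRSS6 from -0.12 to 0.0768, STEAP3 from -0.14 to 0.10, PCBP2 from -0.0398 to 0.0451.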
